A study of Mus musculus with 12 samples.

Results

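The red cell miRNAs mmu-miR-451, mmu-miR-144 and mmu-miR-486 and the hypoxia-linked mmu-miR-210 were examined in the blood of mice without Tff3. They were picked by name from an array table of 710 mouse miRNAs, in which the 4 IDs were found by exact match and each had 1 row. Their passenger strands were not among the rows. The mice were 6 labelled tff3 KO and 6 labelled wild type, with 3 females and 3 males in each group. Trefoil factor 3, the product of Tff3, is a peptide that mucus-secreting cells of the gut release. All mice gave peripheral blood into RNA-stabilising tubes, and total RNA was taken from the pellet left after spinning. The sources used here give neither strain, age nor the construction of the knockout allele, and the design text calls the same mice knock-down experiments. The array holds miRNAs only, so Tff3 itself was not measured.

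Mature red cells of mammals have no nucleus but keep miRNAs made by their precursors, and red cells are by far the most numerous cells of blood. miR-144 and miR-451 are cut from one primary transcript, which the erythroid factor GATA1 switches on. miR-451 is unusual in that its precursor is too short for Dicer and is cut by Argonaute 2 instead. miR-486 lies in the gene of ankyrin-1, which anchors the red cell membrane to its skeleton, and it is also abundant in muscle. miR-210 is induced by hypoxia-inducible factor in many cell types and restrains mitochondrial iron-sulfur cluster assembly. In whole blood, fewer cells of a type and less RNA per cell cannot be told apart.

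The mature sequences are shown because they set what the array reads and which targets a miRNA can pair with. They are RefSeq's (GRCm38.p6), found for 3 of the 4 miRNAs, and the capitals mark the seed, bases 2 to 8. The array's IDs carry no arm, and miR-144 and miR-210 without a suffix are the names formerly used for the 3p strands.
miR-451a: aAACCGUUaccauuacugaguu
miR-144-3p: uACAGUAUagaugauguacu
miR-210-3p: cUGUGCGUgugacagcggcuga
Among 1679 mature mouse sequences no other carried any of these 3 seeds, so these 3 miRNAs differ in seed. The seed of miR-486 was not compared here. Over bases 2 to 7, marked in capitals here, miR-144-3p matched 1 other miRNA.
miR-101a-3p: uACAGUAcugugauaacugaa
The mature strands are 22, 20 and 22 bases long, in the order shown above. The hairpins of the shared transcript follow, with the mature strand in capitals. Mir144 lies at chr11:78073005-78073070 and Mir451a at chr11:78073170-78073241, both on the plus strand with 99 bases between them, and the mature miR-210 strand at chr7:141221407-141221428 on the minus strand.
Mir144: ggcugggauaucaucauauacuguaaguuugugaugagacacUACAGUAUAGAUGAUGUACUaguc
Mir451a: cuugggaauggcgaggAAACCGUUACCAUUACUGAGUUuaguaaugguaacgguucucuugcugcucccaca
In Mir451a the mature strand covers bases 17 to 38 of 72 and so runs across the loop, whereas in Mir144 it covers bases 43 to 62 of 66 on the 3′ arm.

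The arrays differed in brightness before any normalization. Summed intensity ran between 472963 and 814468 in knockouts and between 391740 and 1111471 in wild types. The wild-type columns are numbered 7 to 12 in the raw table and the labelled wild types 1 to 6, so raw wild-type columns were used by genotype only. The authors' normalized table names every column by sample, and there sex is known for all 12 mice. By the order of their values, the normalized columns of wild types 1 to 6 followed raw columns 7 to 12 in turn, with males in 7 to 9 and females in 10 to 12, and this match was used in no test. On wild-type column 8 the 3 brightest rows, miR-486 among them, lay within 48 of each other at the highest values of the whole table, up to 64623, so values of these rows there may be lower bounds. Values below are raw intensities or shares where so named, and levels are log2(quantile-normalized intensity + 50). Precision is limited by there being 6 arrays per genotype.

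**Figure D1:**
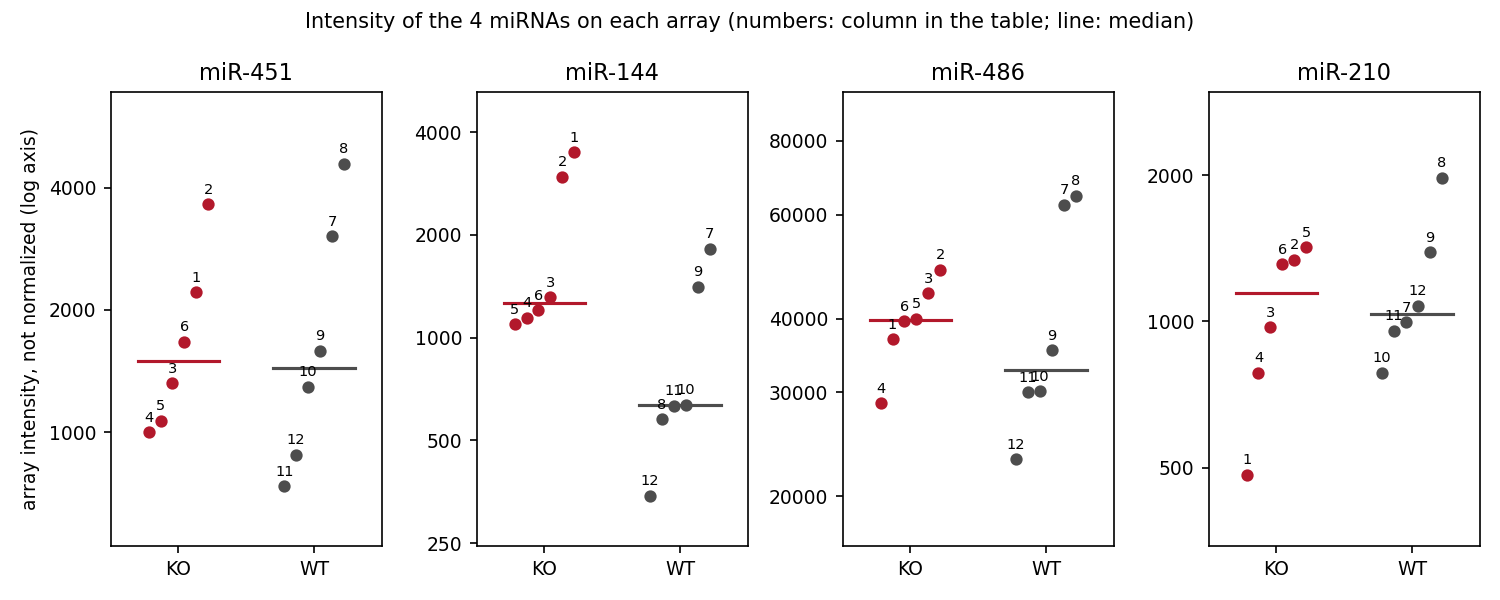
Raw array intensity of the 4 miRNAs (log axis) on each of 6 knockout and 6 wild-type arrays, with the column number beside each point and a line at the group median. The medians of miR-144 stand apart, at 1258.5 in knockouts and 634 in wild types, while the points of both genotypes overlap for all 4 miRNAs.

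The label of red cell miRNAs was first set against the brightness of the rows. Probes differ in how well they bind, so ranks of brightness are not amounts. miR-486 ranked between 2 and 3 from the brightest of 710 rows in knockouts and between 1 and 3 in wild types. miR-451 ranked between 41 and 72.5 in knockouts and between 43 and 63 in wild types. miR-144 ranked between 31 and 73 in knockouts and between 57 and 129 in wild types. miR-210 ranked between 59.5 and 94 in knockouts and between 50 and 80 in wild types. All 4 rows thus lay among the 129 brightest of every array. Platelet, leukocyte and liver miRNAs were read in the same blood, as set out below.

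miR-144 had the largest genotype difference of the 4 miRNAs, with a mean level in knockouts about 2.03 times that in wild types, but it did not pass the test over all miRNAs. Its intensity in knockouts had a lowest value of 1096, a median of 1258.5 and a highest of 3493, against 344, 634 and 1821 in wild types. Knockout columns 1 and 2, at 3493 and 2957, stood above all other arrays. In wild types only columns 7 and 9, at 1821 and 1409, reached the knockouts' range, and the groups overlapped there. As a share of the array's summed intensity, which needs no normalization, miR-144 ran between 0.172% and 0.641% in knockouts and between 0.0518% and 0.244% in wild types. The lowest share was that of wild-type column 8, the array with the highest summed intensity, and it came with a raw value of 576.

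On the normalized scale the 6 knockouts had a mean miR-144 level of 10.76 ± 0.79 (SD), against 9.74 ± 0.86 (SD) in the 6 wild types. The log2 difference was 1.02 with a standard error of 0.39 and a 95% confidence interval between 0.20 and 1.84. limma gave an unadjusted p of 0.018, which ranked 30 of 710, and an adjusted p of 0.415. The exact two-sided permutation test gave p = 0.056. limma called 0 of 710 miRNAs for genotype (0%), and 64 had an unadjusted p under 0.05 (9.01%). The exact permutation test and the exact Wilcoxon test called 0, with 61 (8.59%) and 53 (7.46%) under 0.05 unadjusted. With 6 arrays per genotype neither can give a p below 0.0022, which passes adjustment over 710 miRNAs only where many share it. Their 0 is therefore no separate evidence. Knockouts with wild-type columns 7 and 8 alone as their comparison, obtained by fitting columns 1 to 8 and 9 to 12 as blocks, differed in miR-144 by 1.19 on the log2 scale, with a confidence interval between -0.01 and 2.39. These 2 wild types lay far apart, with miR-144 levels of 10.42 in column 7 and 8.73 in column 8. The difference of 1.19 therefore rests mostly on column 8. That comparison is also not balanced for sex, as described with miR-210.

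miR-451, cut from the same transcript, had close mean levels in both genotypes. This miRNA lowers 14-3-3ζ in red cell precursors. Its intensity in knockouts had a lowest value of 1000, a median of 1494.75 and a highest of 3637, against 736, 1439 and 4581 in wild types. The highest arrays were knockout column 2 and wild-type column 8, and the groups overlapped over most of their range. The 6 knockouts had a mean level of 10.74 ± 0.62 (SD), against 10.84 ± 0.39 (SD) in the 6 wild types. The log2 difference was -0.09 with a standard error of 0.26 and a 95% confidence interval between -0.65 and 0.46, with limma's adjusted p at 0.921. With columns 1 to 8 and 9 to 12 as blocks it was -0.49, with an interval between -1.23 and 0.25.

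Since one transcript gives both miRNAs, their ratio within an array was read next, which depends on no normalization between arrays. The log2 ratio of miR-144 to miR-451, each with 50 added, had a lowest value of -0.45, a median of 0.01 and a highest of 0.65 in knockouts. In wild types these were -2.89, -0.84 and -0.16. The 6 knockouts averaged 0.02 ± 0.39 (SD), against -1.03 ± 1.00 (SD) for the 6 wild types, a difference of 1.05. Of the 6 wild types, 4 lay below every knockout and 2, columns 9 and 11, lay inside the knockouts' range. The lowest ratio, in column 8, joined a high miR-451 to a low miR-144. Leaving out 1 array at a time moved the difference between 0.68 and 1.22, the lower value without that column. As the pair was looked at with its separate differences known, the ratio was given no test.

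**Figure D2:**
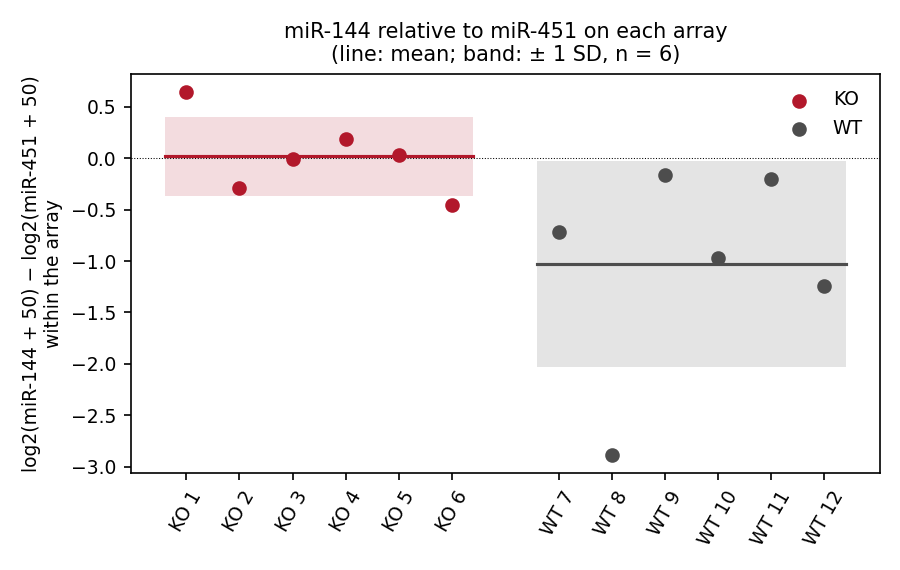
Log2 ratio of miR-144 to miR-451 within each array from raw intensities with 50 added, for 6 knockout and 6 wild-type columns, with the mean as a line and ± 1 SD as a band. The knockouts scatter around 0.02, and the wild types have a mean of -1.03 with column 8 at -2.89.

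The levels of the 2 miRNAs were also set against each other. Over the 6 knockouts they had a Pearson correlation of 0.86 and over the 6 wild types one of 0.03. Over all 12 arrays it was 0.36, with a Spearman coefficient of 0.34, and without the 2 arrays farthest from the median of miR-451 it was 0.11, and without those farthest from the median of miR-144 it was -0.05. Whether the coefficients of the genotypes differ was not tested, and the knockout value includes the 2 bright arrays, columns 1 and 2, both from males. The coefficients also pool the sexes. Knockout females and males differed by -0.95 in miR-451 and by -1.07 in miR-144 on the log2 scale, neither past the threshold. The part of sex in the coefficients was not tested.

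miR-486 lay at or near the top of every array, and its genotype difference was smaller than its standard error. Its host gene by position is Ank1. Its intensity in knockouts had a lowest value of 28763, a median of 39791 and a highest of 48363, against 23065.5, 32722 and 64575 in wild types. Wild-type columns 7 and 8, at 62415 and 64575, were the highest of all arrays and column 12 the lowest. The value, rank and share on column 8 are those of a row near the top of the scale and are uncertain. Per array, miR-486 took between 5.70% and 7.19% of the summed intensity in knockouts and between 5.11% and 7.66% in wild types. The shares of the genotypes overlapped.

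After quantile normalization miR-486 could take only the value of its rank. It was at 15.22 on 8 arrays, 4 of each genotype, at 15.42 on 2 knockout arrays and 1 wild-type array, and at 15.63 on 1 wild-type array. The log2 difference was -0.04 with a standard error of 0.13 and a 95% confidence interval between -0.32 and 0.24, with limma's adjusted p at 0.937. Without column 8 it was -0.06. Without normalization it was 0.05, and with scaling to the 75th percentile 0.03, with standard errors of 0.27 and 0.25. The sign of this difference thus changed with the scaling. Under quantile normalization it also changed without wild-type column 7, to 0.02 with a standard error of 0.13. All these differences were smaller than their standard errors.

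miR-210 had a lower mean in knockouts, and this difference did not pass the test either. It is the member induced by low oxygen. Its intensity in knockouts had a lowest value of 484, a median of 1142.5 and a highest of 1421, against 784, 1036 and 1977 in wild types. Knockout column 1 was the lowest array and wild-type column 8 the highest, and the rest overlapped. The raw median was the higher one in knockouts, whereas the share of summed intensity ran the other way, with medians of 0.165% in knockouts and 0.208% in wild types. The 6 knockouts had a mean level of 10.03 ± 0.39 (SD), against 10.40 ± 0.41 (SD) in the 6 wild types. The log2 difference was -0.38 with a standard error of 0.22 and a 95% confidence interval between -0.83 and 0.08, with limma's adjusted p at 0.638. With the column blocks it was 0.05, so its direction was not kept against wild-type columns 7 and 8. By the match of values those columns are 2 males, whereas the knockouts are 3 females and 3 males, so the blocked differences of all 4 miRNAs are not balanced for sex.

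For none of the 4 miRNAs did the levels of the genotypes separate, against 5 of 710 miRNAs (0.704%) whose groups did not overlap. Of the 4 differences 1 was positive and 3 were negative, with a median of -0.07, and over all 710 miRNAs 351 were positive and 359 negative, with a median of -0.0015.

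Sex was compared in the authors' normalized table, in which both genotypes have labelled females and males. In both genotypes the males carry replicate numbers 1 to 3 and the females 4 to 6, so sex and the order of numbering cannot be told apart. miR-451 had a lower mean in females than in males of both genotypes, and of the 4 miRNAs it came closest to the threshold. Its normalized intensity in knockout females was 880, 1131 and 1254, against 1474.5, 2348 and 2466 in knockout males. In wild-type females it was 1159.5, 1200 and 1598, against 1751, 1925 and 2241 in wild-type males. The sexes did not overlap within either genotype, where 11.1% of all miRNAs did not overlap among knockouts and 15.1% among wild types. Over both genotypes they did, since the highest wild-type female exceeded the lowest knockout male.

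With genotype and sex in one fit, the log2 difference of miR-451 between females and males was -0.73 with a standard error of 0.16 and a 95% confidence interval between -1.08 and -0.38, so that females had 0.602 times the level of males. limma gave an unadjusted p of 0.00047, the 3rd smallest of 710, and an adjusted p of 0.097, above the threshold. Permuting sex within genotype over all 400 arrangements gave an exact two-sided p of 0.005, which is the smallest that this design can give, and 0.338 after adjustment over 710 miRNAs. Without knockout 3, the lowest male, limma's adjusted p was 0.040, and without each other array in turn it lay between 0.076 and 0.241. The log2 difference was -0.89 among knockouts and -0.57 among wild types, and the genotype by sex interaction was -0.32 with a 95% confidence interval between -1.02 and 0.37 (limma's adjusted p 0.793). In raw intensities the knockout sexes overlapped, with females between 1000 and 1669 and males between 1320.5 and 3637, while their summed intensities ran between 472963 and 694540 and between 544845 and 814468.

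**Figure D3:**
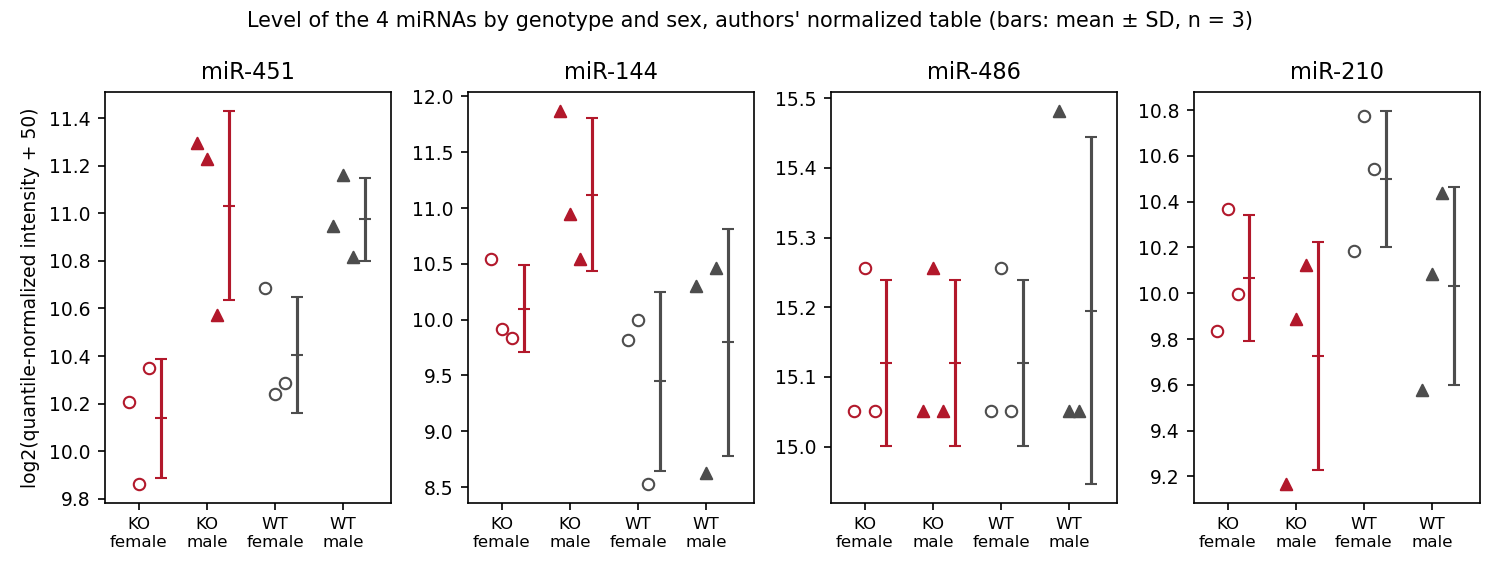
Level of the 4 miRNAs, log2(quantile-normalized intensity + 50), in females (open circles) and males (triangles) of each genotype from the authors' normalized table, with bars for mean ± SD over 3 mice. For miR-451 all 3 males lie above all 3 females within each genotype.

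miR-144 had the same direction by sex with more scatter. Its normalized intensity in knockout females was 863, 917 and 1442, against 1442, 1925 and 3700 in knockout males. Knockout female 4 and knockout male 3 shared the same value. In wild-type females it was 319, 853 and 973, against 344.5, 1211 and 1363 in wild-type males, and 1 animal of each sex lay far below the others of its sex. Females and males differed by -0.69 on the log2 scale, with a standard error of 0.35 and limma's adjusted p of 0.416. The interaction with genotype was -0.67 with a 95% confidence interval between -2.20 and 0.86.

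miR-210 had the opposite direction by sex, and miR-486 had a difference near 0 after quantile normalization. The 6 females had a mean miR-210 level of 10.28 ± 0.35 (SD), against 9.88 ± 0.45 (SD) in the 6 males. They differed by 0.40 on the log2 scale, with a standard error of 0.20 and limma's adjusted p of 0.397. Its normalized intensity ran between 863 and 1700 in females and between 525 and 1335 in males. For miR-486 the log2 difference was -0.04 with a 95% confidence interval between -0.30 and 0.22. Its value after quantile normalization is set by its rank alone, which bounds this difference and its interaction in advance. Among knockouts without normalization, females and males differed in miR-486 by -0.26 on the log2 scale, with a standard error of 0.40. The interactions with genotype were -0.13 for miR-210 and 0.08 for miR-486, and limma called 0 of 710 interactions (0%), with 42 at an unadjusted p under 0.05 (5.92%).

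Sex is balanced over genotype, so adding it to the fit of the authors' normalized table could not move the genotype differences. Only their standard errors could change. For miR-144 the difference was 0.99 with a standard error of 0.35, against 0.39 without sex, and limma's adjusted p was 0.292. For miR-451 it was -0.10 with a standard error of 0.16, against 0.25 without sex. For miR-210 it was -0.37 with a standard error of 0.20. No member passed, and limma called 0 of 710 in that fit (0%), with 77 at an unadjusted p under 0.05 (10.8%).

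**Figure D4:**
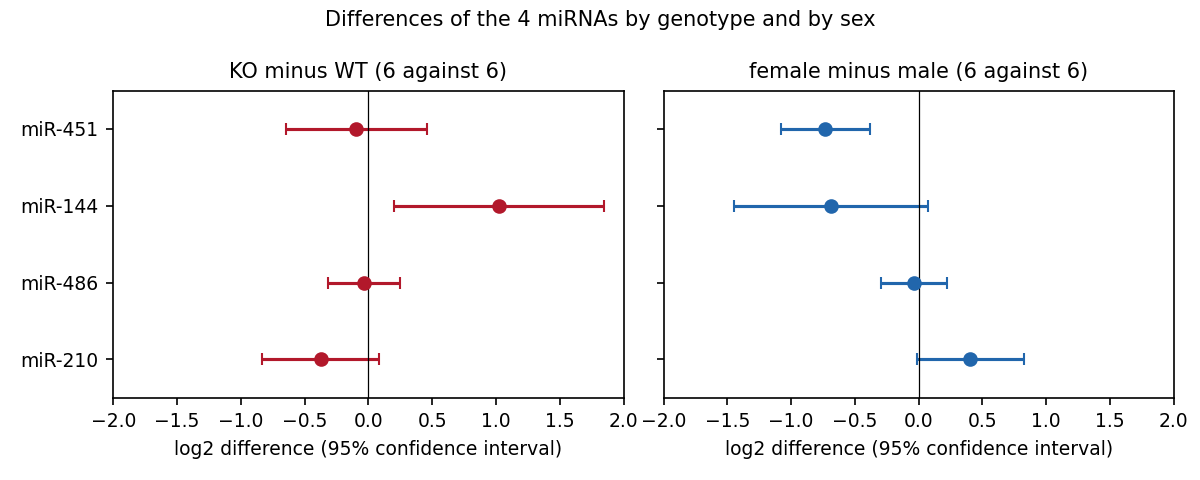
Log2 differences of the 4 miRNAs with 95% confidence intervals, between knockouts and wild types from the raw table (left) and between females and males with genotype in the fit from the authors' normalized table (right). The interval of miR-144 by genotype runs between 0.20 and 1.84 and that of miR-451 by sex between -1.08 and -0.38; neither passed after adjustment over 710 miRNAs.

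Other miRNAs known from red cells were divided by sex. A list of 13, the brightest being miR-16, miR-15b, miR-191 and miR-25, had 7 positive and 6 negative differences between females and males, with a median of 0.02 on the log2 scale, beside 0.0026 over all miRNAs. By genotype it had 4 positive and 9 negative, with a median of -0.06, and none passed in either comparison. Over all 710 miRNAs an unadjusted limma p under 0.05 was found for 64 by genotype (9.01%), 33 of them negative. By sex it was found for 87 (12.3%), 46 of them positive. In this list of 13 it was found for 2 by genotype, both negative, and for 2 by sex, both positive. Those by genotype were miR-107, at -0.79 (limma's adjusted p 0.141), and miR-103, at -0.51, opposite in sign to miR-144. Those by sex, miR-191 at 0.47 among them, were opposite in sign to miR-451. Of 8 miRNAs that decline as red cells mature, the brightest being miR-24, miR-150, miR-223 and miR-222, 5 were positive and 3 negative by sex, and 4 and 4 by genotype, and none passed. Of 12 miRNAs linked to hypoxia 11 were measured, the brightest being miR-103, miR-26a, miR-23a and miR-24. By genotype 3 were positive and 8 negative, with a median of -0.33, and by sex 9 were positive and 2 negative, with a median of 0.14. None of the 11 passed in either comparison. An unadjusted limma p under 0.05 was found for 4 of these 11 by genotype, all negative, beside 9.01% of all 710. By sex it was found for 3, all positive, beside 12.3%. The 4 include miR-103 and miR-107, already counted in the red cell list. The lists here and below share 7 miRNAs, each on 2 lists, and are not separate evidence. miR-103 and miR-107 are on the red cell and hypoxia lists, miR-24 on the maturation and hypoxia lists, and miR-181a on the hypoxia and lymphocyte lists. miR-223, miR-150 and miR-146a are on the maturation list and on the myeloid, lymphocyte and pan-leukocyte lists in that order.

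Markers of other sources were read by sex in the same table. miR-122, the main miRNA of hepatocytes, was the 1 miRNA of 710 (0.141%) that limma called between females and males, and 87 had an unadjusted p under 0.05 (12.3%). It had means of 9.38 ± 2.40 in knockout females and 6.67 ± 0.01 in knockout males, and of 11.93 ± 0.65 in wild-type females and 7.76 ± 0.75 in wild-type males (SD, n = 3 each). The log2 difference was 3.44 with limma's adjusted p at 0.036. The count called was 0 without knockout 1 or 2, without any 1 of the wild types and with an offset of 1, and 5 without knockout 3. The exact permutation test called 0 too, but its smallest possible p, 0.005, passes adjustment over 710 miRNAs only where many share it. That 0 therefore says little about miR-122. The mean level of 3 muscle miRNAs, miR-133a, miR-206 and miR-1, ran between 6.85 and 7.86 in females and between 6.65 and 7.31 in males, and all 3 differences were positive. The mean of 4 lymphocyte miRNAs, miR-29a, miR-150, miR-342-3p and miR-181a, ran between 10.27 and 10.83 in females and between 9.49 and 10.61 in males, with 3 positive and 1 negative. Of these miR-342-3p differed by 0.83 on the log2 scale, with limma's adjusted p at 0.097.

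The list of 4 miRNAs taken as myeloid had members that differed in sign by sex. miR-223, the one most used as a myeloid marker, differed by -0.58 between females and males, whereas miR-143, miR-145 and miR-125a-5p differed by 0.63, 0.92 and 0.44 on the log2 scale. miR-143 and miR-145 are also known from smooth muscle, so the list's mean, between 8.53 and 10.23 in females and between 8.25 and 9.18 in males, does not read myeloid cells alone. The mean of 5 platelet and endothelial miRNAs, the brightest being miR-151-5p, miR-130a, miR-126-3p and miR-199a-3p, ran between 8.34 and 8.69 in females and between 8.15 and 8.37 in males, with 4 positive. The mean of 3 pan-leukocyte miRNAs, miR-142-5p, miR-146a and miR-142-3p, ran between 7.34 and 8.31 in females and between 7.97 and 8.60 in males, with 1 positive and 2 negative. None of the markers in these 5 lists passed by sex, and the part of these cells in the sex difference of miR-451 was not tested.

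By genotype no marker of these sources passed, and the mean levels of each list overlapped between knockouts and wild types. For miR-122 the 6 knockouts averaged 8.09 ± 2.20 (SD), against 9.99 ± 2.46 (SD) for the 6 wild types. The difference, -1.90 on the log2 scale (standard error 1.06), was the most negative of all 710, with limma's adjusted p at 0.619. Its levels ran between 6.68 and 12.34 in knockouts and between 6.95 and 12.90 in wild types. The lymphocyte mean ran between 9.61 and 10.69 in knockouts and between 10.40 and 11.03 in wild types, with 2 differences positive and 2 negative. The negative ones were miR-181a, at -1.08 (limma's adjusted p 0.135), and miR-342-3p, at -0.60 (limma's adjusted p 0.535). Both had an unadjusted p under 0.05, as had 9.01% of all 710 miRNAs.

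The pan-leukocyte mean ran between 8.04 and 8.66 in knockouts and between 7.42 and 8.58 in wild types, and all 3 differences were positive, between 0.09 and 0.27 on the log2 scale. The muscle mean ran between 6.69 and 7.93 in knockouts and between 6.88 and 7.44 in wild types, and all 3 differences were positive, between 0.18 and 0.52. The platelet and endothelial mean ran between 8.23 and 8.77 in knockouts and between 8.31 and 8.65 in wild types, with 2 positive and 3 negative. The mean of the list taken as myeloid ran between 8.31 and 10.38 in knockouts and between 8.52 and 9.27 in wild types, with 3 positive and 1 negative. Within that list the SD of miR-145 was 1.39 in knockouts and 0.37 in wild types, and that of miR-223 was 0.31 in knockouts and 1.15 in wild types. The part of these sources in the difference of miR-144 was not tested.

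The miRNAs most like each member over the 12 arrays were sought among 354 others at or above the median level. All points share the array and its normalization, and females and males are pooled, so the coefficients are descriptions. For miR-210 the nearest were miR-423-5p, miR-130b and miR-342-3p, with Pearson coefficients of 0.95, 0.92 and 0.87 and Spearman coefficients of 0.94, 0.90 and 0.75. Without the 2 arrays farthest from its median the Pearson coefficients were 0.89, 0.90 and 0.64. miR-210 with miR-423-5p kept 0.96 among knockouts and 0.94 among wild types. For miR-144 the nearest were let-7f, miR-15b and miR-721, with Pearson coefficients of 0.85, 0.83 and 0.76 and Spearman coefficients of 0.85, 0.82 and 0.71. With its own 2 farthest arrays left out they were 0.63, 0.65 and 0.62 (Pearson). miR-15b, itself on the red cell list, had 0.78 with it among knockouts and 0.77 among wild types.

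For miR-451 the nearest were let-7i, miR-29b and miR-1939, with Pearson coefficients of 0.79, 0.73 and 0.71 and Spearman coefficients of 0.84, 0.73 and 0.62, and miR-144 came 68th. With its own 2 farthest arrays left out the first 3 were 0.68, 0.63 and 0.69 (Pearson). For miR-486, which takes 3 values only, the nearest were miR-1966, miR-20b and miR-132, with Pearson coefficients of 0.82, 0.70 and 0.63 and Spearman coefficients of 0.69, 0.67 and 0.51. Without the 2 arrays farthest from its median these were 0.42, 0.35 and 0.28. miR-210 had negative Pearson coefficients with both miRNAs of the shared transcript, -0.61 with miR-451 and -0.61 with miR-144, and Spearman coefficients of -0.52 and -0.55. Without the 2 arrays farthest from the median of miR-210 the Pearson coefficients were -0.39 and -0.46. Without the 2 farthest from the median of the other miRNA they were -0.42 with miR-451 and -0.18 with miR-144, so the relation with miR-144 rests in part on those arrays. Within genotypes its coefficient with miR-451 was -0.76 in knockouts and -0.76 in wild types, and with miR-144 it was -0.89 in knockouts and -0.13 in wild types.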

How the data were processed

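Total RNA of mouse blood was labelled with biotin by an on-array primer extension, per the labels' protocols. The authors deposited a raw table of intensities, linear and partly below 0 (282 values, 3.31%), and a normalized table of intensities that start at 1 and share 1 distribution in every column, as after quantile normalization. Neither the steps behind them nor the miRBase release or the build is stated in the sources used here. Each column of the normalized table kept the order of 1 raw column (Spearman over 0.9999 in 12 of 12). Raw wild-type columns were used by genotype only.

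The members and lists were chosen with earlier results of these data known. The text names the members, the 3 miRNAs most like each and at most the 4 brightest of each marker list, besides those named for standing on 2 lists. Raw intensities were quantile-normalized, and log2(value + 50) was tested with limma 3.58.1 in R 4.3.3, two-sided, with Benjamini-Hochberg adjustment over 710 miRNAs, which all passed a filter of lying above the array's lowest value on at least 6 arrays, and a threshold of 0.05. The offset of 50 makes differences of dim rows smaller than they are. Fits for sex and its interaction with genotype used the normalized table. Alternatives were other scalings, offsets, filters, weights and variance models, exact tests, column blocks, the normalized table with sex or a replicate block, and leaving out each array. The offsets, exact test and left-out arrays for sex over both genotypes and for the interaction were added after the data were seen. Python 3.11.15 with matplotlib 3.10.9 drew the figures.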

Additional observations from a re-analysis of the deposited data

How the results depend on the processing

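Under 27 alternatives the genotype difference of miR-144 kept its sign in all and lay between 0.76 and 1.20, and none of the 4 miRNAs passed the threshold. Several could not move that difference: dropping the filter, which removed no miRNA, keeping the brighter rows, the trended variance and the exact test of means. The fits with sex or a replicate block could only repeat the 0.99 of the normalized table. The exact tests could hardly have passed any miRNA. The difference of miR-451 was 0.0017 without normalization. That of miR-486 was 0.046 without normalization and 0.031 with scaling to the 75th percentile, and that of miR-210 was 0.054 with the column blocks. Leaving out 1 array at a time moved these differences between -0.25 and 0.057 for miR-451, between 0.76 and 1.20 for miR-144, between -0.067 and 0.025 for miR-486 and between -0.50 and -0.23 for miR-210. The count of miRNAs called by genotype was 0, and between 0 and 1 with arrays left out, the 1 being without wild-type column 12. With the replicate number as a block in the normalized table, miR-144 differed by 0.99 and miR-210 by -0.37. These are its differences without the block, which is balanced and cannot move them. The adjusted p from limma was 0.305 and 0.308 in that order, and no miRNA was called. Same-numbered mice deviated from their group means with correlations between -0.12 and 0.18, so the number was not taken as a pairing.

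For sex over both genotypes, leaving out 1 array moved miR-451 between -0.82 and -0.65, miR-144 between -0.98 and -0.48, miR-486 between -0.072 and 0.030 and miR-210 between 0.29 and 0.50, and the count called between 0 and 5. miR-451 passed without knockout 3 alone (-0.82, limma's adjusted p 0.040). The count called was 0 with an offset of 1. It was also 0 with the exact permutation, whose smallest possible p of 0.005 left little room for a call. Within the knockouts in the raw table the count was 0, and 3 without normalization, 2 with an offset of 1 and 1 with a trended robust variance. The fit without normalization gave all 4 members the same standard error, 0.40, so its count of 3 is uncertain. Leaving out 1 array gave a count of 0 each time. For the interaction, leaving out 1 array moved miR-144 between -1.13 and -0.088, miR-451 between -0.55 and -0.18, miR-210 between -0.41 and 0.10 and miR-486 between -0.068 and 0.15. The causes were not tested. Values near the array's lowest intensities limit dim rows, which the 4 miRNAs are not, and the top of the scale limits miR-486 on wild-type column 8.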
